A study of Mus musculus with 9 samples.

Results

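ITD-1 is a small-molecule blocker of TGFβ signaling that makes cells break down TGFBR2, the type II receptor. Myocytes that had been treated with ITD-1 were compared with untreated control myocytes on expression arrays. The question is which transcripts change when the receptor is blocked in cultures that were given no TGFβ1. The 3 ITD-1 arrays and the 3 control arrays are 6 of the 9 arrays of the series, and every probe set with a single gene symbol was taken from them, 24704 of 25428. The other 3 arrays are of myocytes treated with TGFβ1, whose values are given where they bear on the comparison.

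All cultures were primary myoblasts of C57BL/6 mice, of the N substrain by the methods, with no engineered allele, and had been grown from satellite cells, which are muscle stem cells. The mice were adults, the satellite cells came from hindlimb muscle, and antibodies on magnetic beads had removed other cell types. The cells were differentiated for 24 h at 30000 cells per cm2 and then kept for another 24 h with ITD-1, with 20 ng/ml of TGFβ1, or with neither. The labels give 5 mM of ITD-1, while the methods give 5 µM, the dose taken here. The arrays of a group are from independent experiments. The sources used here do not say whether these used different mice, or whether control cultures received the solvent of ITD-1, so p-values measure the spread between these cultures. One dose, one time and one cell type were examined, and what is measured is RNA, not the receptor protein.

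TGFβ ligands are secreted in a latent form, bound to latency proteins in the matrix. Once freed they bind TGFBR2, which recruits and activates the type I receptor TGFBR1, and the pair phosphorylates SMAD2 and SMAD3. These bind SMAD4, enter the nucleus and switch on matrix genes, cytoskeletal genes and inhibitors of the pathway itself. In muscle, TGFβ is known as a brake on myoblast differentiation and fusion and as a driver of fibrosis. Myoblasts are known to make TGFβ of their own.

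The arrays of a group correlated at 0.992 to 0.996 over all probe sets, and ITD-1 with control arrays at 0.992 to 0.995. Array medians were 4.11 to 4.20 on the log2 scale. A step of 1 on it is a doubling of the signal. The 12 skeletal muscle markers measured had a mean level of 11.02 to 11.10 on the ITD-1 arrays, against 11.03 to 11.10 on the control arrays. Markers of fibroblasts averaged 3.87 to 3.93 with ITD-1 and 3.89 to 3.91 in controls, those of endothelial cells 3.52 to 3.65 with ITD-1 and 3.56 to 3.65 in controls, and those of macrophages 3.61 to 3.71 with ITD-1 and 3.60 to 3.65 in controls. Of these 3 lists 12 of 13, 9 of 10 and 9 of 11 members lay below the median level of all probe sets, 4.14, and none passed the test. The lists of smooth muscle and pericyte markers and of Schwann cell, adipocyte and tenocyte markers held 1 called gene each, *Rgs5* and *Scx*.

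With ITD-1, 142 probe sets were lower and 15 were higher than in controls at a Benjamini-Hochberg adjusted p under 0.05 in limma, which is 0.575% and 0.0607% of all tested (0.636% together). On all 157 the ITD-1 arrays did not overlap the control arrays, as was the case for 5.92% of all probe sets downward and 5.22% upward. The falls were modest in size, with a log2 fold change of -1.39 to -0.34 and a median of -0.66. A fall of at least 2-fold was seen for 14 genes, and the largest was 2.62-fold. The rises were smaller, between 0.39 and 0.77 on the log2 scale, and none reached 2-fold. Protein-coding genes made up 139 of the falls and 13 of the rises. Of the 142 falls 141 lay above the median level of all probe sets, as did 12 of the 15 rises. When probe sets under that median were dropped, 174 of the 12352 left were lower, and 868 were lower without adjustment. Shares over all probe sets are thus a low reference for lists whose members mostly lie above the median. By the criteria of the study's methods, which ask for 1.5-fold and p under 0.05 in an analysis of variance with no adjustment, the arrays gave 135 falls (0.546%) and 21 rises (0.085%). In RNA from a whole culture, fewer cells of a type and less RNA per cell cannot be told apart.

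With 3 arrays a group, many of these calls rested on single arrays. When each of the 9 arrays was left out in turn, 31 of the 157 genes were called every time, all of them lower with ITD-1, while the log2 fold changes themselves stayed between 0.768 and 1.22 times the value from all arrays. Without control replicates 1, 2 and 3 in turn, 37, 38 and 50 genes were called lower and 0, 1 and 4 higher. Without ITD-1 replicates 1 and 2 in turn, 72 and 82 were lower and 5 and 8 higher, and without TGFβ1 replicate 1, 90 were lower and 8 higher. The other arrays moved both counts by at most 1.5 times. With only the ITD-1 and control arrays in the fit, 100 of the 157 lost their call, and with the analysis of variance and Benjamini-Hochberg adjustment 140 did. The 31 were called in each alternative that tested them other than the adjusted analysis of variance. They were *Cd80*, *Igfbp5*, *Mt1*, *Mt2*, *Grem1*, *Ptgs2*, *Ntn4*, *Rgs5*, *Mmp2*, *Fstl1*, *Ccn4*, *Ckb*, *Anxa5*, *Anxa1*, *Col3a1*, *Lamb1*, *Flna*, *Sdc2*, *Sdc3*, *Tnfrsf12a*, *Ptgfrn*, *Mme*, *Txndc5*, *Sema7a*, *Cdh18*, *Prss23*, *Rnase4*, *Lbh*, *Sh3bgrl*, *F2r* and *Prrg4*. RMA gave exactly the same value on at least 2 of the 3 control arrays for 13.4% of all probe sets, and for 26 of the 142 genes that fell and 1 of the 15 that rose. Among the 31 these were *Anxa5*, *Grem1*, *Lamb1*, *Prrg4*, *Sdc2* and *Sh3bgrl*.

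**Figure D1:**
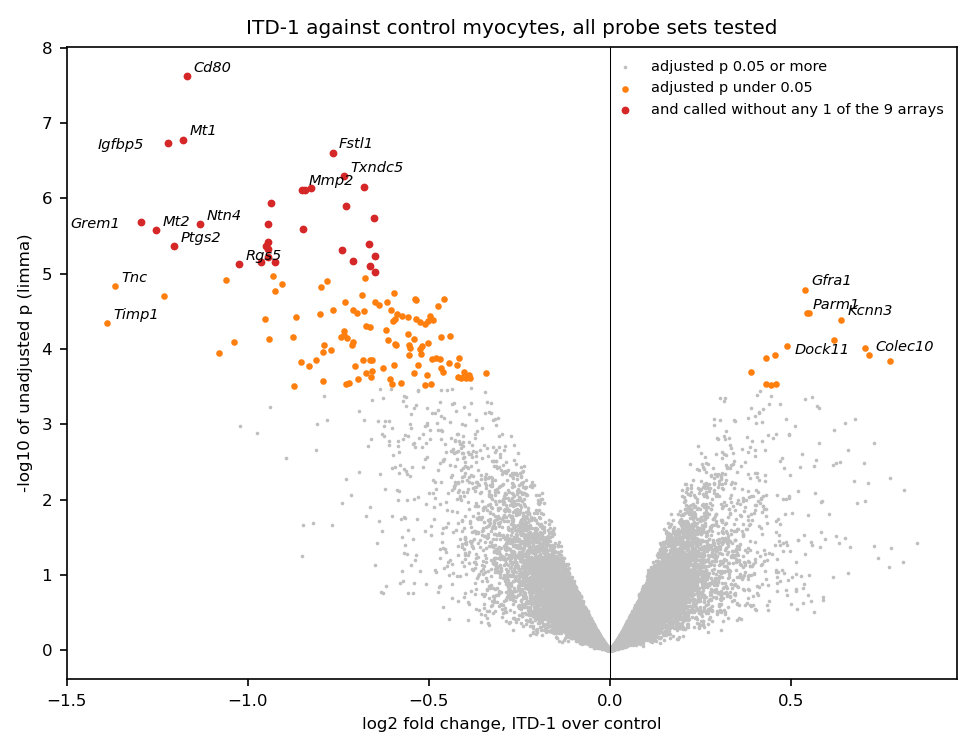
Log2 fold change of ITD-1 over control against the -log10 of the unadjusted p from limma, 1 point per probe set. Orange and red points passed the adjusted threshold, red ones also without any 1 of the 9 arrays. The 142 falls reach a log2 fold change of -1.39 and the 15 rises 0.77, and all 31 red points are on the left.

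The transcript of the receptor that ITD-1 removes was not called changed. *Tgfbr2* stood at 6.10, 6.09 and 5.65 on the ITD-1 arrays, at 6.97, 7.21 and 7.14 with TGFβ1 and at 6.20, 6.55 and 6.25 in controls. The ITD-1 arrays lay just below the control arrays, by 0.39 on the log2 scale (95% interval of the change, -0.70 to -0.08), and the difference did not pass (limma, adjusted p = 0.481). None of the 11 receptors, SMADs and partners passed, among them *Tgfbr1* at 0.26 ± 0.13 (log2 fold change ± SE), *Smad2* at 0.09 ± 0.06, *Smad3* at 0.27 ± 0.09 and *Smad4* at 0.03 ± 0.07. The feedback list held no called gene among 14, with a median of -0.09. *Smad7*, which blocks the receptor, was at 5.27, 5.10 and 5.04 with ITD-1, at 5.99, 5.80 and 5.89 with TGFβ1 and at 5.11, 4.81 and 5.02 in controls, so that the ITD-1 and control arrays overlapped (0.16 ± 0.10, adjusted p = 0.769). The repressors *Ski* and *Skil* had log2 fold changes of -0.09 ± 0.11 and -0.10 ± 0.13. *Klf10*, a transcription factor induced early by TGFβ, was lower on each ITD-1 array, at 6.14, 6.18 and 6.31, than on the control arrays, at 6.67, 6.55 and 6.64, and its adjusted p of 0.158 did not pass.

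Of the ligands, *Tgfb1* was at 5.72, 5.47 and 6.10 with ITD-1, at 8.38, 8.06 and 8.00 with TGFβ1 and at 6.32, 6.30 and 6.11 in controls (-0.48 ± 0.16, adjusted p = 0.389). *Tgfb2* was at 4.41, 4.34 and 4.28 with ITD-1 and at 4.74, 4.87 and 4.82 in controls, which do not overlap (-0.47 ± 0.09, adjusted p = 0.0684). *Tgfb3* gave 0.19 ± 0.07. None of the 3 ligands passed the threshold. Within the list of ligands and latency proteins 2 of 13 genes fell (15.4%, against 0.575% of all probe sets). Only 1 of these 13 lay below the median level, and with such low probe sets dropped 174 of 12352 were lower. *Thbs1*, thrombospondin 1, which frees TGFβ from its latent form, was at 8.98, 8.86 and 9.19 with ITD-1 and at 9.68, 9.86 and 9.83 in controls, a fall of 0.78 ± 0.09 on the log2 scale (adjusted p = 0.00885). *Ltbp1*, which tethers latent TGFβ to the matrix, fell by 0.47 ± 0.07 (adjusted p = 0.0207). The call of *Thbs1* was lost without control replicate 2 (adjusted p = 0.0593), and that of *Ltbp1* without any one of ITD-1 replicates 1 and 3 and control replicates 1, 2 and 3 (adjusted p = 0.0529 to 0.101). On 2 control arrays *Ltbp1* had the same value.

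Among 23 known target genes of TGFβ 5 fell (21.7%). Without adjustment 10 of them were lower, as were 4.46% of all probe sets and 868 of the 12352 not under the median level. Of the 23 genes 3 lay below that level. The list's median was -0.22 on the log2 scale, beside 0.01 over all probe sets. *Timp1*, an inhibitor of matrix metalloproteinases, had the largest fall of all genes. It stood at 6.06, 5.62 and 6.48 with ITD-1, at 9.56, 9.61 and 9.31 with TGFβ1 and at 7.57, 7.54 and 7.21 in controls. The ITD-1 arrays were spread over almost 1 log2 unit and all lay below the controls, a 2.62-fold fall (-1.39 ± 0.20, adjusted p = 0.0155). *Tnc*, the matrix glycoprotein tenascin C, stood at 4.58, 5.17 and 5.37 with ITD-1, at 9.25, 9.35 and 9.23 with TGFβ1 and at 6.39, 6.47 and 6.37 in controls (-1.37 ± 0.17, adjusted p = 0.0097). *Bhlhe40*, a repressor of the circadian clock, fell by 0.66 ± 0.10 (adjusted p = 0.0165), *Fn1*, fibronectin, by 0.76 ± 0.10 (adjusted p = 0.014), and *Tagln*, a smooth muscle actin-binding protein, by 0.63 ± 0.11 (adjusted p = 0.0345). Each of these calls depended on single arrays. That of *Timp1* was lost without any one of ITD-1 replicate 1 and control replicates 1 and 2 (adjusted p = 0.0673 to 0.0954), that of *Tnc* without control replicate 1 (adjusted p = 0.0555) or control replicate 2 (adjusted p = 0.0594), that of *Bhlhe40* without any one of ITD-1 replicates 1 and 2 and control replicates 1 and 2 (adjusted p = 0.0725 to 0.0887), that of *Fn1* without any one of control replicates 1, 2 and 3 (adjusted p = 0.0587 to 0.0747), and that of *Tagln* without any one of ITD-1 replicates 1, 2 and 3, TGFβ1 replicates 1 and 2 and control replicates 1, 2 and 3 (adjusted p = 0.0535 to 0.164). With only the ITD-1 and control arrays all 5 calls were lost as well. The adjusted p was then 0.0941 for *Timp1*, 0.0705 for *Tnc*, 0.0743 for *Fn1*, 0.0595 for *Bhlhe40* and 0.0556 for *Tagln*. *Lox*, lysyl oxidase, gave -0.59 ± 0.13 (adjusted p = 0.139).

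Promoters of leading genes are printed because SMAD proteins bind short elements that can be read from the letters. The letters CAGACA hold the SMAD-binding core, and GTCTAGAC is its palindrome, which SMAD3 and SMAD4 bind in vitro. On both strands, CAGACA was found in 25.2% of the 139 RefSeq promoters searched, which belong to 108 of the 142 genes that fell. The matches lay in 35 promoters of 30 genes. The share was 18.3% of the 19491 promoters of tested protein-coding genes that were searched. Other letters searched also had a higher share among the falls. They were the CArG box (4.32% against 1.43%), TGCGCNC (30.9% against 20.5%), TGANTCA (10.1% against 7.04%) and TATAAA (15.8% against 12.1%). GGAATG (13.7% against 13.2%) and TGCACNC (12.2% against 12.6%) differed little. A higher share was thus not particular to CAGACA. Not every chromosome was included in the search. The palindrome was found in 1 of the 139 (0.719%) and in 0.236% of all. Each window runs from 250 bases before the annotated start to 50 after it, in GRCm38.p6, and is written 5′ to 3′ along the gene. Of the 2 starts listed for *Tnc*, the second, at chr4:64046887-64047186 on the minus strand, had CAGACA at positions 39 to 44 and its reverse complement TGTCTG at -71 to -66, counted with the start as 0. *Dpp6*, one of the genes that rose, had the palindrome at 16 to 23 of its second start, chr5:27048949-27049248 on the plus strand. No form of either element was in the windows of the other leading genes read, *Timp1*, *Grem1*, *Mt2*, *Dock11*, *Kcnn3* and *Parm1*. Capitals mark every match to the letters searched, which for *Tnc* include TATAAA, the letters of a TATA box, and a metal response element, TGCGCNC. The TATAAA lies at -205 to -200 of this start. No distance from the start was asked of a match, so it is a match of letters only.
Tnc, second start: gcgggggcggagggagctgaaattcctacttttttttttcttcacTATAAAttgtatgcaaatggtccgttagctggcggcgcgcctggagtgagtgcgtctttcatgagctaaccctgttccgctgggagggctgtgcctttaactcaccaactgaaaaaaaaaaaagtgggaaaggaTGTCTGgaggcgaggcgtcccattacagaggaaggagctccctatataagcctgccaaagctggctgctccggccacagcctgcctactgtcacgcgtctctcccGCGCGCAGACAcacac
Dpp6, second start: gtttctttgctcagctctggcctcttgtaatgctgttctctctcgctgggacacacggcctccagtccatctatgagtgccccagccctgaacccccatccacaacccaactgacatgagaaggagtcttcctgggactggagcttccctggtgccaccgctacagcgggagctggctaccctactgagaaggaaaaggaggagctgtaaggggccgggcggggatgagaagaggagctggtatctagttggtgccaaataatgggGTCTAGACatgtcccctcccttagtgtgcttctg

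Among secreted antagonists of related ligands, *Grem1* stood out. Gremlin 1 binds BMPs, ligands of the same superfamily, and keeps them from their receptors. Its level was 5.86, 5.93 and 6.30 with ITD-1, 8.85, 8.91 and 8.55 with TGFβ1 and 7.29, 7.34 and 7.34 in controls, so that the lowest control array exceeded the highest ITD-1 array by almost 1 log2 unit. The fall was 2.45-fold (-1.30 ± 0.13, adjusted p = 0.00365). *Fstl1*, a follistatin-like secreted glycoprotein, was at 5.92, 5.80 and 5.87 with ITD-1, 7.84, 7.81 and 7.83 with TGFβ1 and 6.63, 6.62 and 6.63 in controls (-0.77 ± 0.06, adjusted p = 0.00153), with little spread in any group. It lies outside the fixed lists and was singled out after its values were seen, as were *Ccn4*, *Ckb* and the other genes of the 31 that no list holds. In the BMP and activin list, 3 of 33 genes fell (9.09%), the others being *Id2* (-0.66), an inhibitor of bHLH factors and a BMP target, and *Bmp1* (-0.53), a protease that trims procollagen. The list's median was -0.03. *Id1* and *Id3*, further BMP targets, gave -0.01 ± 0.11 and -0.13 ± 0.11. The call of *Id2* was lost without any one of ITD-1 replicates 2 and 3, TGFβ1 replicates 1, 2 and 3 and control replicates 1, 2 and 3 (adjusted p = 0.0513 to 0.153) and that of *Bmp1* without any one of ITD-1 replicates 1 and 2, TGFβ1 replicate 1 and control replicates 1, 2 and 3 (adjusted p = 0.0657 to 0.148). *Fst*, follistatin, gave -0.47 ± 0.09 and did not pass (adjusted p = 0.0526), and *Mstn*, myostatin, 0.08 ± 0.11.

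Of 37 matrix glycoproteins and proteoglycans 7 fell (18.9%), namely *Lamb1*, *Lamc1*, *Thbs1*, *Tnc*, *Fn1*, *Fbln1* and *Cd44*, with a list median of -0.12. *Lamb1* and *Lamc1*, the β1 and γ1 chains of laminin, fell by 0.65 ± 0.07 (adjusted p = 0.00597) and 0.87 ± 0.12 (adjusted p = 0.0144). Of 21 collagens 2 fell (9.52%) and 8 were lower without adjustment. *Col3a1*, the chain of type III collagen, was at 5.77, 5.63 and 5.93 with ITD-1 and 6.62, 6.64 and 6.90 in controls (-0.94 ± 0.10, adjusted p = 0.00522), and *Col5a2* of type V fell by 0.60 ± 0.08 (adjusted p = 0.0148). The chains of type I collagen gave 0.07 ± 0.06 for *Col1a1* and -0.38 ± 0.10 for *Col1a2*, neither past the threshold. *Pcolce*, which speeds the trimming of procollagen, was at 5.79, 5.39 and 5.99 with ITD-1, 7.06, 7.05 and 6.74 with TGFβ1 and 7.11, 6.78 and 6.97 in controls, a 2.35-fold fall (adjusted p = 0.0115). *Loxl1*, a lysyl oxidase that crosslinks elastin, fell by 0.79 ± 0.13 (adjusted p = 0.0264). The calls of *Lamb1* and *Col3a1* held without each array. *Lamc1* lost its call without any one of ITD-1 replicate 1 and control replicates 1, 2 and 3 (adjusted p = 0.0528 to 0.0802), *Fbln1* without any one of ITD-1 replicate 2 and control replicates 1, 2 and 3 (adjusted p = 0.0535 to 0.0915), *Cd44* without any one of ITD-1 replicates 1, 2 and 3, TGFβ1 replicates 1 and 2 and control replicates 1, 2 and 3 (adjusted p = 0.0508 to 0.181), *Col5a2* without any one of ITD-1 replicate 1 and control replicates 1, 2 and 3 (adjusted p = 0.0576 to 0.0845), *Pcolce* without control replicate 1 (adjusted p = 0.0658) or control replicate 3 (adjusted p = 0.0596), and *Loxl1* without any one of ITD-1 replicates 1 and 2, TGFβ1 replicate 1 and control replicates 1, 2 and 3 (adjusted p = 0.0579 to 0.14).

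Of 30 matrix proteases and inhibitors 3 fell, namely *Mmp2*, *Plau* and *Timp1*. *Mmp2*, the gelatinase that cuts type IV collagen, was at 5.45, 5.49 and 5.33 with ITD-1, at 6.80, 6.95 and 6.75 with TGFβ1 and at 6.26, 6.30 and 6.27 in controls, and the groups were well apart (1.80-fold, -0.85 ± 0.07, adjusted p = 0.00213). Its call held in each fit and each alternative that was run. *Plau*, the urokinase-type plasminogen activator, fell by 0.71 ± 0.11 (adjusted p = 0.0227), a call lost without any one of ITD-1 replicates 1 and 2 and control replicates 1, 2 and 3 (adjusted p = 0.0799 to 0.114), and its 3 control arrays carry one and the same value. *Mmp14*, which activates MMP2 at the cell surface, was at 6.17, 5.87 and 6.95 with ITD-1 and 7.31, 7.38 and 7.37 in controls. ITD-1 replicate 3 was the nearest to the controls, and the 2.03-fold difference did not pass with it (adjusted p = 0.106), but passed without it (adjusted p = 0.0038). Outside the lists, *Mme*, the membrane peptidase neprilysin, fell by 0.83 ± 0.07 (adjusted p = 0.00213) and *Prss23*, a secreted serine protease, by 0.85 ± 0.09 (adjusted p = 0.00382), and both kept their call without each array.

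Of 37 cytoplasmic actin filament and crosslinker genes 6 fell (16.2%), 15 were lower without adjustment, and the median was -0.17. *Flna*, filamin A, which crosslinks actin filaments and ties them to the membrane, was at 7.34, 7.13 and 7.29 with ITD-1 and 7.85, 7.88 and 8.01 in controls (-0.66 ± 0.08, adjusted p = 0.00653). The others were *Tagln2* (-1.04), *Tagln* (-0.63), *Myh9* (-0.55), *Actn1* (-0.49) and *Msn* (-0.46), which encode actin-binding proteins, a non-muscle myosin heavy chain and a linker of actin to the membrane. None of 35 genes of actin nucleation and turnover was called, with a median of -0.06. *Myh9* was lost without any one of ITD-1 replicates 2 and 3, TGFβ1 replicates 1, 2 and 3 and control replicates 1, 2 and 3 (adjusted p = 0.0516 to 0.136), *Actn1* without any one of ITD-1 replicates 1 and 2, TGFβ1 replicates 1, 2 and 3 and control replicates 1, 2 and 3 (adjusted p = 0.0786 to 0.19), *Msn* without any one of control replicates 1, 2 and 3 (adjusted p = 0.0566 to 0.0631), and *Tagln2*, whose control arrays carry one value, without any one of ITD-1 replicate 1, TGFβ1 replicate 1 and control replicates 1, 2 and 3 (adjusted p = 0.051 to 0.111). Annexins, which bind membrane phospholipids in the presence of calcium, and their S100 partners had the highest share of falls of any list outside the cell type markers, 4 of 16, and 15 of the 16 had a negative sign. *Anxa5* was at 8.15, 7.98 and 7.74 with ITD-1 and 8.97, 8.81 and 8.97 in controls (-0.96 ± 0.11, adjusted p = 0.00613), and *Anxa1* at 9.48, 9.29 and 9.33 with ITD-1 and 10.12, 9.92 and 10.01 in controls (-0.65 ± 0.08, adjusted p = 0.00758). *S100a10* and *S100a4* fell by 0.61 and 0.73, calls lost without any single array (adjusted p = 0.0578 to 0.153) and without any one of ITD-1 replicates 1 and 3, TGFβ1 replicates 1, 2 and 3 and control replicates 1, 2 and 3 (adjusted p = 0.0638 to 0.184). The SRF and MRTF target list, which shares *Flna*, *Myh9* and *Tagln*, had 3 of 24 lower (12.5%) and a median of -0.22.

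*Cd80*, known as a costimulatory ligand of T cells, had the smallest p of all genes. It was at 6.05, 5.95 and 5.93 with ITD-1, at 8.25, 8.37 and 8.25 with TGFβ1 and at 7.22, 7.08 and 7.13 in controls, a 2.25-fold fall (-1.17 ± 0.07, adjusted p = 0.000582). *Igfbp5*, a binding protein that sequesters insulin-like growth factors, was at 7.25, 6.89 and 7.18 with ITD-1, 9.13, 9.15 and 9.11 with TGFβ1 and 8.35, 8.29 and 8.34 in controls (2.33-fold, adjusted p = 0.00151). *Ptgs2*, the inducible cyclooxygenase of prostaglandin synthesis, was at 5.52, 5.32 and 5.86 with ITD-1, 8.60, 8.78 and 8.53 with TGFβ1 and 6.69, 6.81 and 6.82 in controls (2.30-fold, adjusted p = 0.00508). On each of these genes the ITD-1, control and TGFβ1 arrays formed 3 separate groups, in that order from low to high. *Tnfrsf12a*, the receptor of the cytokine TWEAK, was at 8.47, 8.58 and 8.55 with ITD-1 and 9.29, 9.16 and 9.14 in controls (-0.67 ± 0.07, adjusted p = 0.00508), while its TGFβ1 arrays, at 9.43, 9.47 and 9.33, gave 0.21 ± 0.07 over control (adjusted p = 0.14). *Csf1*, a growth factor of macrophages, fell by 0.79 ± 0.12 (adjusted p = 0.0227), and this call was lost without any one of ITD-1 replicates 1 and 2, TGFβ1 replicate 1 and control replicates 1, 2 and 3 (adjusted p = 0.0535 to 0.103).

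Of 32 cytokines, chemokines and receptors 3 fell (9.38%), with a median of -0.03. Of 30 genes of IGF, FGF, EGF and PDGF signaling 2 fell (6.67%), 25 had a negative sign and the median was -0.12. The second was *Igfbp6*, another IGF-binding protein (-0.48 ± 0.08, adjusted p = 0.0293), lost without any one of ITD-1 replicates 1 and 2, TGFβ1 replicates 1, 2 and 3 and control replicates 1, 2 and 3 (adjusted p = 0.0508 to 0.11). Of 30 AP-1 and immediate early genes only *Dusp5*, a nuclear ERK phosphatase, was called (3.33%), although 26 had a negative sign and the median was -0.17. Its fall of 0.67 was lost without any one of ITD-1 replicates 1, 2 and 3, TGFβ1 replicates 1 and 2 and control replicates 1, 2 and 3 (adjusted p = 0.0557 to 0.169). *Ccn4*, a matricellular protein and Wnt target, was at 5.84, 5.95 and 5.86 with ITD-1, 8.41, 8.68 and 8.54 with TGFβ1 and 6.88, 6.70 and 6.88 in controls (-0.94 ± 0.09, adjusted p = 0.00287). Its relatives *Ccn1* and *Ccn2* gave -0.41 ± 0.10 and -0.17 ± 0.16 and did not pass. In the YAP and TEAD target list 1 of 28 fell (3.57%), the receptor tyrosine kinase *Axl* (-0.54 ± 0.07, adjusted p = 0.0119), a call lost without any one of control replicates 1, 2 and 3 (adjusted p = 0.0583 to 0.0652). In the Wnt list 1 of 42 fell (2.38%), the nuclear factor *Lef1* (-0.68 ± 0.09, adjusted p = 0.0113), a call lost without any one of control replicates 1, 2 and 3 (adjusted p = 0.0555 to 0.0652). *Lef1* had one value on 2 control arrays.

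**Figure D2:**
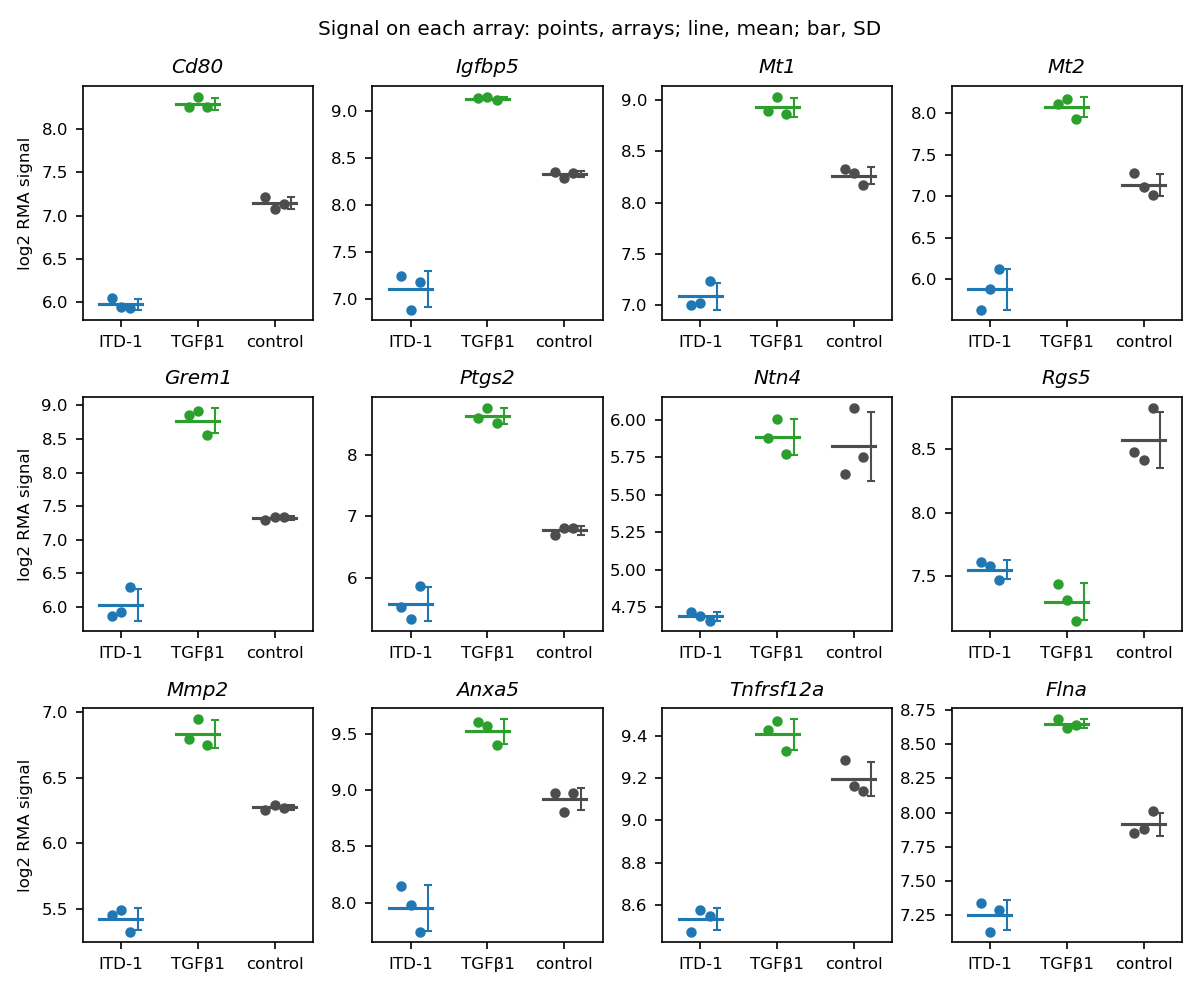
Log2 RMA signal of 12 genes on each array, with ITD-1, TGFβ1 and control from left to right. Points are arrays, the line is the mean and the bar the SD of 3 arrays, and each panel has its own scale. On every panel the 3 ITD-1 points lie below the 3 control points, and on the *Rgs5* panel the TGFβ1 points lie below the controls too.

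The metallothioneins, small cysteine-rich proteins that bind zinc and copper and buffer oxidative stress, were among the largest falls. *Mt1* was at 7.00, 7.01 and 7.24 with ITD-1, 8.89, 9.03 and 8.87 with TGFβ1 and 8.33, 8.29 and 8.17 in controls (2.26-fold, -1.18 ± 0.09, adjusted p = 0.00151). *Mt2* was at 5.63, 5.88 and 6.12 with ITD-1, 8.11, 8.17 and 7.93 with TGFβ1 and 7.27, 7.10 and 7.02 in controls (2.38-fold, -1.25 ± 0.13, adjusted p = 0.00382). For both genes the highest ITD-1 array lay almost 1 log2 unit below the lowest control array. The list of heat shock, proteasome and oxidative stress genes held 2 more falls, making 4 of 24 (16.7%), with a median of -0.07. They were *Nqo1*, a quinone reductase, at -0.81 ± 0.13 (adjusted p = 0.0296), and *Nfe2l2*, which encodes the transcription factor NRF2, at -0.42 ± 0.07 (adjusted p = 0.0325). *Nqo1* was lost without any one of ITD-1 replicates 1, 2 and 3, TGFβ1 replicate 2 and control replicates 1, 2 and 3 (adjusted p = 0.0515 to 0.151) and *Nfe2l2* without any one of ITD-1 replicates 1 and 3, TGFβ1 replicates 1, 2 and 3 and control replicates 1, 2 and 3 (adjusted p = 0.0521 to 0.164). Of their common partners, *Hmox1* gave -0.50 ± 0.11 (adjusted p = 0.136) and *Gclc* -0.12 ± 0.07. *Ahr*, the aryl hydrocarbon receptor, which senses drugs and pollutants, fell by 0.73 ± 0.10 (adjusted p = 0.0121), a call lost without control replicate 1 (adjusted p = 0.0658) or control replicate 2 (adjusted p = 0.0593). Its classical targets *Cyp1a1* and *Cyp1b1*, at mean levels of 4.09 ± 0.08 and 3.77 ± 0.33 with ITD-1 and 3.96 ± 0.15 and 3.91 ± 0.15 in controls (SD, n = 3), did not pass.

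The promoters of *Mt1* and *Mt2* are shown for their metal response elements, the sites of the zinc-sensing factor MTF1, which drives both genes. The letters searched on both strands were TGCACNC and TGCGCNC. The window of *Mt1*, chr8:94178839-94179138 on the plus strand, held 3 elements, and that of *Mt2*, chr8:94172368-94172667 on the plus strand, held 4. At least 3 such elements were found in 2.5% of the 19491 promoters and at least 4 in 0.662%. Capitals mark the elements.
Mt1: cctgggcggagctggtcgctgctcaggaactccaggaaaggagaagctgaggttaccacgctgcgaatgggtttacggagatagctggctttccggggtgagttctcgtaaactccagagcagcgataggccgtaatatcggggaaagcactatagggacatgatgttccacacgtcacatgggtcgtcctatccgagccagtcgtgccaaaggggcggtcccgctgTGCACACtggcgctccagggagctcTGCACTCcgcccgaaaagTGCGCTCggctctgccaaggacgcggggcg
Mt2: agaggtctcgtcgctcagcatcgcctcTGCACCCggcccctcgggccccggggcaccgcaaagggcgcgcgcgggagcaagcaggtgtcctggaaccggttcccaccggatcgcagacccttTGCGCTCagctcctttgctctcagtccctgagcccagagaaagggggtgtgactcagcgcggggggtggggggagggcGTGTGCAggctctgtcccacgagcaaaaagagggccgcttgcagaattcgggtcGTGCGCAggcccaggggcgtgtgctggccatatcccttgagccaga

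The 26 mitosis and spindle genes had a mean level of 4.32 to 4.36 on the ITD-1 arrays, against 4.60 to 4.74 on the control arrays. All 26 had a negative sign, and the median was -0.35, beside 0.01 over all probe sets. Without adjustment 18 were lower, as were 4.46% of all probe sets, and 2 passed (7.69%). Of the 26, 11 lay below the median level of all probe sets, 4.14. *Top2a*, the topoisomerase of dividing cells, was at 4.51, 4.47 and 4.39 with ITD-1, 4.55, 4.63 and 4.46 with TGFβ1 and 5.48, 5.02 and 5.28 in controls (-0.80 ± 0.11, adjusted p = 0.0143). *Ect2*, which activates RhoA for cytokinesis, was at 6.30, 6.10 and 6.02 with ITD-1, 6.40, 6.40 and 6.27 with TGFβ1 and 6.86, 6.69 and 6.71 in controls (-0.62 ± 0.09, adjusted p = 0.018). *Mki67*, a marker of cycling cells, gave -0.59 ± 0.16, *Prc1* -0.61 ± 0.13 and *Plk1* -0.44 ± 0.10, none past the adjusted threshold. For this list the ITD-1 arrays did not overlap the controls. Of 24 DNA replication genes none passed, 9 were lower without adjustment and the mean level was 5.13 to 5.17 with ITD-1 and 5.33 to 5.42 in controls.

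Both *Ccnd1* and *Ccnd2*, D-type cyclins that drive cells into the cycle, fell. *Ccnd1* was at 6.28, 6.34 and 6.51 with ITD-1, 7.12, 7.52 and 7.12 with TGFβ1 and 7.25, 7.52 and 7.55 in controls, a 2.09-fold fall (adjusted p = 0.00885), and *Ccnd2* was at 9.10, 9.02 and 8.98 with ITD-1 and 9.51, 9.64 and 9.57 in controls (-0.54 ± 0.07, adjusted p = 0.0119). They were the only 2 of 15 cyclins and CDK inhibitors that passed (13.3%). Their kinases *Cdk6* and *Cdk4* gave -0.79 ± 0.15 (adjusted p = 0.061) and -0.43 ± 0.08 (adjusted p = 0.0703). *Cdkn1a*, the CDK inhibitor of cell cycle exit, was high and overlapping in both groups, at 12.78, 12.75 and 12.84 with ITD-1 and 12.78, 12.76 and 12.68 in controls. Single arrays mattered for each call of the cell cycle. *Ccnd1* was lost without control replicate 2 (adjusted p = 0.0593), *Ccnd2* without control replicate 2 (adjusted p = 0.0655) or control replicate 3 (adjusted p = 0.0541), *Top2a* without any one of ITD-1 replicates 1 and 2 and control replicates 1 and 3 (adjusted p = 0.0507 to 0.0705), and *Ect2* without any one of ITD-1 replicate 2 and control replicates 1, 2 and 3 (adjusted p = 0.0692 to 0.0965).

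None of 13 myogenic transcription factors passed, with a median of 0.00, among them *Pax7* (-0.13 ± 0.14), *Myod1* (0.07 ± 0.10) and *Myog* (log2 fold change within -0.13 to 0.13). The fusogens *Mymk* and *Mymx* gave 0.10 ± 0.06 and 0.04 ± 0.08, and *Arhgef6*, an exchange factor for Rac and Cdc42 that the study followed, 0.21 ± 0.11. Of 53 sarcomere and maturation genes 2 fell (3.77%), with a median of 0.00. They were *Mb*, the oxygen store myoglobin (-0.56 ± 0.08, adjusted p = 0.0144), and *Myh4*, the fast IIB myosin heavy chain (-0.70 ± 0.12, adjusted p = 0.0423). *Mb* was lost without any one of control replicates 1, 2 and 3 (adjusted p = 0.0649 to 0.0869) and *Myh4* without any one of ITD-1 replicates 1, 2 and 3, TGFβ1 replicates 1, 2 and 3 and control replicates 1 and 2 (adjusted p = 0.0656 to 0.189). In the fusion list 2 of 40 fell (5.00%). *Ptgfrn*, a surface partner of the tetraspanins CD9 and CD81, was at 6.49, 6.41 and 6.39 with ITD-1, 8.55, 8.52 and 8.48 with TGFβ1 and 7.17, 7.26 and 7.40 in controls (1.79-fold, adjusted p = 0.00213) and kept its call in each fit. *Itga4*, an integrin chain that binds VCAM1 and fibronectin, fell by 0.71 ± 0.11 (adjusted p = 0.022), lost without any one of ITD-1 replicates 2 and 3, TGFβ1 replicate 1 and control replicates 2 and 3 (adjusted p = 0.0535 to 0.107).

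Of the 4 syndecans, proteoglycans of the cell surface that bind growth factors, 3 fell. The family was looked up after its values were seen and is no list of its own, and its other member, *Sdc1*, gave -0.10 ± 0.08 (adjusted p = 0.851). *Sdc3* was at 6.35, 6.28 and 6.57 with ITD-1, 7.88, 7.79 and 7.75 with TGFβ1 and 7.23, 7.28 and 7.52 in controls (1.92-fold, adjusted p = 0.00508). *Sdc2* was at 7.07, 7.09 and 7.02 with ITD-1, 8.38, 8.42 and 8.32 with TGFβ1 and 7.74, 7.74 and 7.74 in controls, the last an identical value on each array (-0.68 ± 0.06, adjusted p = 0.00213). *Sdc4* fell by 0.52 ± 0.08 (adjusted p = 0.0273), a call lost without any one of ITD-1 replicates 1 and 2, TGFβ1 replicate 1 and control replicates 1, 2 and 3 (adjusted p = 0.0621 to 0.122). With *Sdc3* and *Sdc4*, 2 of 23 satellite cell and Notch genes fell (8.70%), 10 were lower without adjustment, and the median was -0.18.

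Excitation-contraction coupling was the only list with a gene that rose, and its median of 0.16 was the highest of all lists. *Kcnn3*, a calcium-activated potassium channel, was at 8.68, 8.53 and 8.87 with ITD-1, 7.24, 7.35 and 7.33 with TGFβ1 and 8.10, 8.08 and 7.99 in controls (0.64 ± 0.09, adjusted p = 0.0147), a call lost without any one of ITD-1 replicate 1 and control replicates 1, 2 and 3 (adjusted p = 0.0605 to 0.0753). Of the 26 genes 21 had a positive sign and 5 were higher without adjustment, against 3.42% of all probe sets. *Cacna1s*, the voltage sensor of the muscle membrane, gave 0.26 ± 0.08, and *Ryr1*, the calcium release channel, 0.18 ± 0.08, while *Casq1*, the calcium store protein, gave -0.61 ± 0.14 in the other direction. None of these 3 passed. No gene was called among 16 of the neuromuscular junction, 28 of the interferon response, 27 of cholesterol and lipid synthesis, 27 of the respiratory chain or 21 of atrophy and autophagy. One gene fell in each of 2 metabolic lists. *Egln3*, an oxygen-sensing prolyl hydroxylase among 31 glycolysis and hypoxia genes, fell by 0.94 ± 0.14 (adjusted p = 0.0209), lost without any one of ITD-1 replicate 2 and control replicates 1, 2 and 3 (adjusted p = 0.0637 to 0.0965). *Pdia4*, a disulfide isomerase among 29 ER stress genes, fell by 0.54 ± 0.08 (adjusted p = 0.0209), lost without any one of ITD-1 replicates 1 and 3 and control replicates 1, 2 and 3 (adjusted p = 0.0531 to 0.106).

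**Figure D3:**
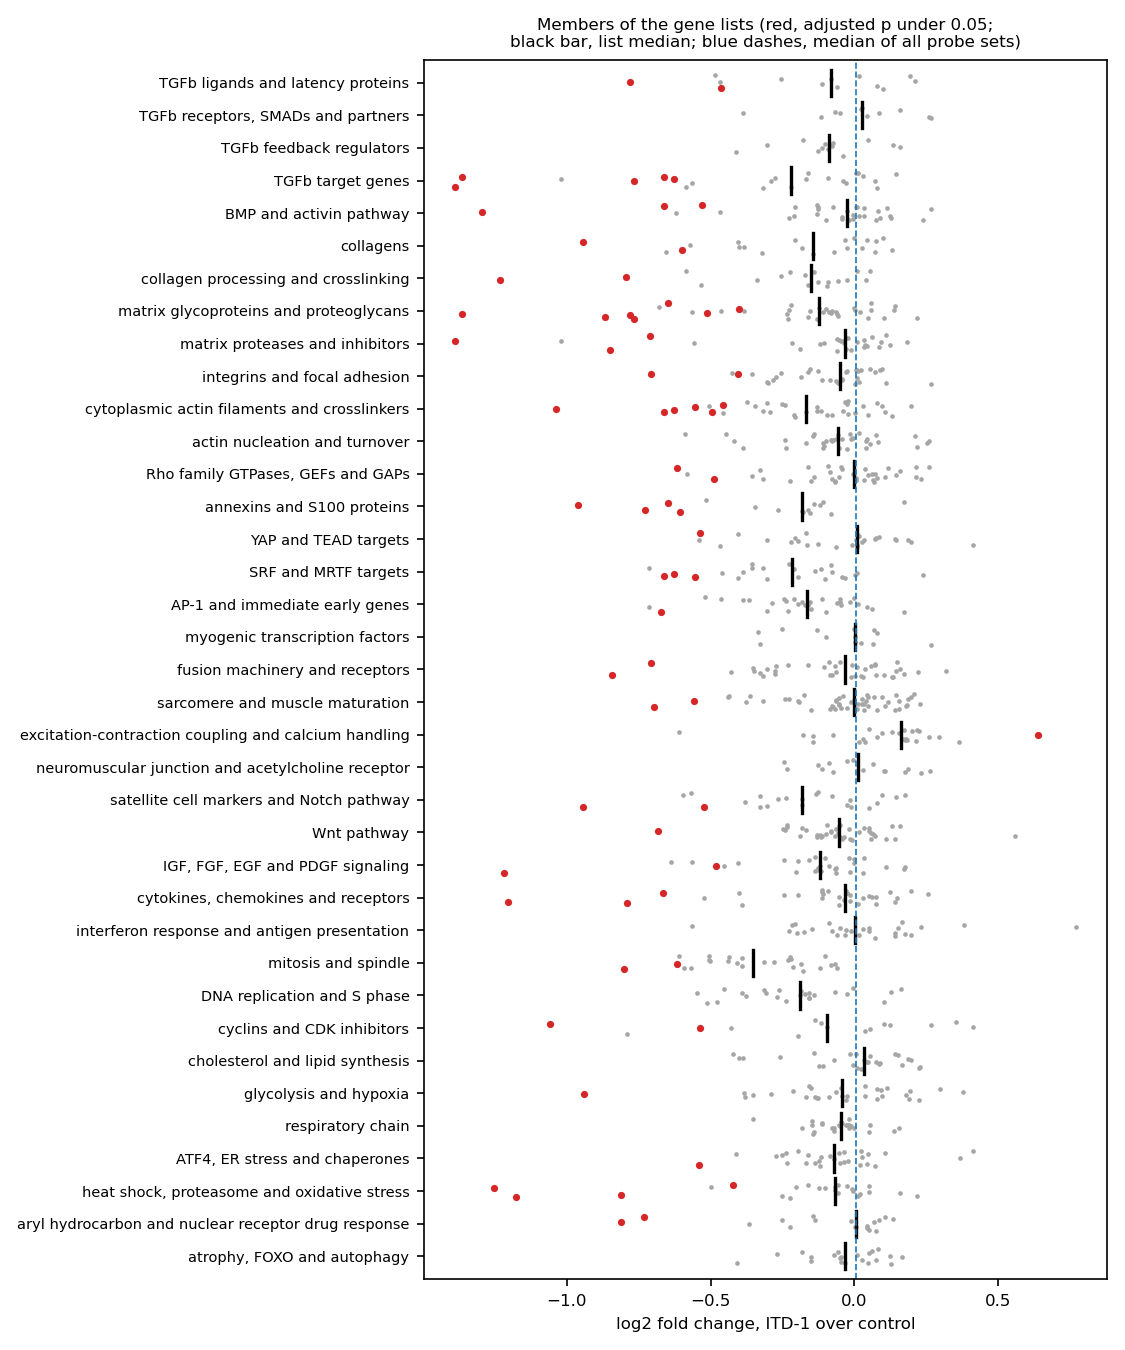
Log2 fold change of ITD-1 over control for the members of each gene list, 1 row per list. Red points passed the adjusted threshold, black bars are list medians and the dashed line is the median of all probe sets, 0.01. Target genes of TGFβ and mitosis genes have medians of -0.22 and -0.35, and the bar of excitation-contraction coupling is at 0.16.

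The 15 genes that rose share no list beyond *Kcnn3*. *Gfra1*, the co-receptor of the neurotrophic factor GDNF, had the smallest p, at 7.91, 7.99 and 8.00 with ITD-1, 6.62, 6.66 and 6.68 with TGFβ1 and 7.32, 7.48 and 7.48 in controls (0.54 ± 0.07, adjusted p = 0.0103). *Colec10*, a secreted collectin, was at 5.52, 5.81 and 5.69 with ITD-1, 3.22, 3.57 and 3.57 with TGFβ1 and 5.03, 5.00 and 4.83 in controls (0.72 ± 0.11, adjusted p = 0.0274). *Dock11*, an exchange factor for Cdc42, was at 7.39, 7.41 and 7.01 with ITD-1, 5.19, 5.30 and 5.09 with TGFβ1 and 6.52, 6.62 and 6.55 in controls (0.71 ± 0.11, adjusted p = 0.0238). On these 3 genes the order of the groups was the reverse of that of *Cd80*, with the ITD-1 arrays highest and the TGFβ1 arrays lowest. *Dpp6*, an auxiliary subunit of potassium channels, rose by 0.55 ± 0.07 (adjusted p = 0.0142), and *Parm1*, a mucin-like membrane protein, by 0.54 ± 0.07 (adjusted p = 0.0142). For *Parm1* the TGFβ1 arrays, at 9.79, 9.77 and 9.81, overlapped the controls, at 9.83, 9.82 and 10.01. The rest were *Defb2*, *Aff2*, *Sash1*, *Mocs2*, *Ly6i*, *Dlg2*, *Pknox2* and 2 predicted genes, with rises of 0.39 to 0.77. Some lay low on the arrays, whose median level was 4.14. *Ly6i* was at 3.01 to 3.15 with ITD-1 and 2.54 to 2.73 in controls. *Defb2* was at 3.955 to 4.247 with ITD-1 and 3.41 to 3.55 in controls. The predicted gene *Gm38444* was at 3.13 to 3.18 with ITD-1 and 2.56 to 2.82 in controls.

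No rise was called in every fit without 1 array. *Gfra1* was lost without control replicate 1 (adjusted p = 0.0507), *Parm1* without control replicate 1 (adjusted p = 0.0847) or control replicate 2 (adjusted p = 0.0762), *Dpp6* without any one of ITD-1 replicates 1 and 2 and control replicates 1, 2 and 3 (adjusted p = 0.0537 to 0.0793), *Dock11* without any one of ITD-1 replicates 1 and 2, TGFβ1 replicate 1 and control replicates 1, 2 and 3 (adjusted p = 0.0579 to 0.127), and *Colec10* without any one of ITD-1 replicates 1, 2 and 3 and control replicates 1, 2 and 3 (adjusted p = 0.0505 to 0.117). *Defb2* was lost without any one of ITD-1 replicates 1 and 3 and control replicates 1, 2 and 3 (adjusted p = 0.0529 to 0.114), *Aff2* without any one of ITD-1 replicates 1, 2 and 3, TGFβ1 replicates 1 and 3 and control replicates 1, 2 and 3 (adjusted p = 0.0514 to 0.184), *Sash1* without any one of ITD-1 replicates 1, 2 and 3, TGFβ1 replicates 1 and 2 and control replicates 1, 2 and 3 (adjusted p = 0.0535 to 0.114), *Dlg2* without any one of ITD-1 replicates 1 and 2, TGFβ1 replicates 1 and 2 and control replicates 1, 2 and 3 (adjusted p = 0.0512 to 0.141), *Pknox2* without any one of ITD-1 replicates 1, 2 and 3, TGFβ1 replicates 1 and 2 and control replicates 1, 2 and 3 (adjusted p = 0.0617 to 0.18), *Mocs2* without any single array (adjusted p = 0.0729 to 0.163) and *Ly6i* without any single array (adjusted p = 0.0549 to 0.189). Without control replicate 1 no gene was called higher in limma, while 716 were higher at an unadjusted p under 0.05.

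Where the change with ITD-1 mirrors the change with TGFβ1, they have opposite signs and equal size. Both use the same 3 control arrays, so their values are given side by side, and the sum of the 2 changes was tested against 0 in the same limma fit. The sum differed from 0 for 160 probe sets, 0.648% of all tested, 83 of them below 0 (0.336%) and 77 above (0.312%). The count of 160 was 15, 17 and 60 without control replicates 1, 2 and 3 in turn. It was 67 and 86 when ITD-1 replicate 1 or 2 was dropped, and 43 and 71 when TGFβ1 replicate 1 or 2 was. All sums printed are from the fit without a replicate block. With the replicate number as a block 95 sums differed from 0, 82 of them the same genes, and of the genes named here the sum was no longer called for *Lrrn3* (adjusted p = 0.0512), *Aff2* (0.0534), *Ccnd1* (0.0574), *Ntn4* (0.0577), *Nuf2* (0.0599) and *Mir5120* (0.0709). With TGFβ1 itself 2.78% of all probe sets were called lower and 3.65% higher. *Rgs5*, an inhibitor of G protein signaling known from pericytes, was at 7.61, 7.58 and 7.47 with ITD-1, 7.44, 7.31 and 7.15 with TGFβ1 and 8.48, 8.42 and 8.83 in controls. Both treatments lowered it, by 1.02 ± 0.12 with ITD-1 (adjusted p = 0.00643) and by 1.28 ± 0.12 with TGFβ1 (adjusted p = 0.000179), and the sum was -2.30 ± 0.20 (adjusted p = 0.00275), called without each array too. The other genes called lower with each treatment were *Top2a*, *Itga4*, *Ect2*, the adhesion protein *Lrrn3*, *Rgs4*, a relative of *Rgs5*, the kinetochore gene *Nuf2*, the growth factor gene *Fgf9* and the microRNA gene *Mir5120*. For these genes and *Rgs5*, called lower with both treatments, a sum below 0 follows from the 2 falls. A high value on the shared control arrays would lower both changes at once. The p of their sums is therefore no separate support. The changes were -0.80 with ITD-1 and -0.71 with TGFβ1 for *Top2a* (sum -1.51, adjusted p = 0.0147), -0.71 and -0.69 for *Itga4* (adjusted p = 0.0179), -0.62 and -0.40 for *Ect2* (adjusted p = 0.0259), -0.59 and -0.40 for *Lrrn3* (adjusted p = 0.0201) and -0.42 and -0.53 for *Rgs4* (adjusted p = 0.0179). They were -0.68 and -0.56 for *Nuf2* (sum adjusted p = 0.0283), -0.60 and -0.47 for *Fgf9* (adjusted p = 0.0328) and -0.52 and -0.34 for *Mir5120* (adjusted p = 0.0342). The sum was no longer called for *Top2a* without control replicate 1 (adjusted p = 0.0529) or control replicate 3 (adjusted p = 0.0535), for *Itga4* without any one of TGFβ1 replicate 1 and control replicates 2 and 3 (adjusted p = 0.0512 to 0.127), for *Ect2* without any one of ITD-1 replicate 2, TGFβ1 replicates 1, 2 and 3 and control replicates 1, 2 and 3 (adjusted p = 0.0547 to 0.137), for *Lrrn3* without any one of TGFβ1 replicates 1 and 2 and control replicates 1 and 2 (adjusted p = 0.0553 to 0.135) and for *Rgs4* without any one of TGFβ1 replicate 1 and control replicates 1, 2 and 3 (adjusted p = 0.0502 to 0.114). The fall with ITD-1 was itself lost for *Lrrn3* without any one of ITD-1 replicate 2 and control replicates 1 and 2 (adjusted p = 0.0539 to 0.0856) and for *Rgs4* without any single array (adjusted p = 0.0668 to 0.151). For *Nuf2* the sum was lost without any array but control replicate 2 (adjusted p = 0.0574 to 0.14), for *Fgf9* without any but ITD-1 replicate 1 (adjusted p = 0.0519 to 0.187), and for *Mir5120* without any but ITD-1 replicates 2 and 3 (adjusted p = 0.0595 to 0.152). The fall with ITD-1 was lost for *Nuf2* without any array but control replicate 2 (adjusted p = 0.056 to 0.143), for *Fgf9* without any but ITD-1 replicate 1 and TGFβ1 replicate 3 (adjusted p = 0.0557 to 0.162), and for *Mir5120* without any one of ITD-1 replicate 1, TGFβ1 replicate 1 and control replicates 1, 2 and 3 (adjusted p = 0.0547 to 0.114). With the replicate block it was not called for *Itga4* (adjusted p = 0.0647), *Rgs4* (0.0754), *Nuf2* (0.0652) or *Mir5120* (0.0644). The fall of *Mir5120* with TGFβ1 was not called with the block either (adjusted p = 0.0656).

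A few genes that fell with ITD-1 were not called with TGFβ1 and had a sum below 0. *Ntn4*, the laminin-related guidance protein netrin 4, was at 4.72, 4.69 and 4.66 with ITD-1, 5.88, 6.00 and 5.77 with TGFβ1 and 5.63, 6.08 and 5.75 in controls. The TGFβ1 and control arrays overlapped, and the ITD-1 arrays lay below both (-1.13 ± 0.11 with ITD-1, adjusted p = 0.00365, and sum -1.07, adjusted p = 0.0478). *Ccnd1* gave -1.06 with ITD-1 and -0.19 with TGFβ1 (sum -1.25, adjusted p = 0.0449). *Gpnmb*, a lysosomal and surface glycoprotein, gave -1.08 (adjusted p = 0.027) and -0.64 (sum -1.72, adjusted p = 0.0416), though with the replicate block its change with TGFβ1 was called too (adjusted p = 0.0178). Its fall with ITD-1 was lost without any one of ITD-1 replicates 1 and 2, TGFβ1 replicates 1, 2 and 3 and control replicates 1, 2 and 3 (adjusted p = 0.0529 to 0.117). Each of these sums depended on single arrays. That of *Ntn4* was lost without any single array (adjusted p = 0.0764 to 0.159), that of *Ccnd1* without any one of ITD-1 replicates 1, 2 and 3, TGFβ1 replicates 1 and 3 and control replicates 1, 2 and 3 (adjusted p = 0.0641 to 0.221), and that of *Gpnmb* without any one of ITD-1 replicates 1 and 2, TGFβ1 replicates 1, 2 and 3 and control replicates 1, 2 and 3 (adjusted p = 0.0802 to 0.171). For *Pcolce* the changes were -1.23 with ITD-1 and 0.00 with TGFβ1, and for *Col3a1* -0.94 and 0.19, but their sums did not pass (adjusted p = 0.114 and 0.138).

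Other genes fell with ITD-1 by less than they rose with TGFβ1. *Bhlhe40* gave -0.66 with ITD-1 and 2.70 with TGFβ1 (sum 2.03 ± 0.16, adjusted p = 0.00189). The sum of *Bhlhe40* was called without each array. *Ndrg4* gave -0.53 and 1.80 (sum adjusted p = 0.00749), *Rrad*, a small GTPase that restrains calcium channels, -0.61 and 1.84 (sum adjusted p = 0.00898), and *Ank*, a membrane exporter of pyrophosphate and ATP, -0.42 and 1.32 (sum adjusted p = 0.0157). Among the rises, *Aff2* gave 0.46 with ITD-1 and -1.45 with TGFβ1 (sum adjusted p = 0.0218). The sum was lost for *Ndrg4* without control replicate 1 (adjusted p = 0.0522) or control replicate 2 (adjusted p = 0.0633), for *Rrad* without control replicate 1 (adjusted p = 0.0627) or control replicate 2 (adjusted p = 0.0604), for *Ank* without control replicate 1 (adjusted p = 0.0668) or control replicate 2 (adjusted p = 0.108) and for *Aff2* without any one of ITD-1 replicate 2, TGFβ1 replicate 1 and control replicates 1, 2 and 3 (adjusted p = 0.0521 to 0.135). The fall with ITD-1 was lost for *Ndrg4* without any one of ITD-1 replicates 2 and 3, TGFβ1 replicate 1 and control replicates 1, 2 and 3 (adjusted p = 0.0579 to 0.129), for *Rrad* without any one of control replicates 1, 2 and 3 (adjusted p = 0.0596 to 0.0758) and for *Ank* without any one of ITD-1 replicates 1, 2 and 3, TGFβ1 replicates 1 and 3 and control replicates 1, 2 and 3 (adjusted p = 0.0503 to 0.151). With the replicate block the change with ITD-1 was not called for *Ndrg4* (adjusted p = 0.0611), *Ank* (0.0903) or *Aff2* (0.104). At the other end, *Cd80* gave -1.17 ± 0.07 with ITD-1 and 1.15 ± 0.07 with TGFβ1, a sum of -0.02 ± 0.12. *Grem1* gave -1.30 ± 0.13 and 1.45 ± 0.13 (sum 0.15 ± 0.22), and *Mme* -0.83 ± 0.07 and 0.74 ± 0.07 (sum -0.08 ± 0.12). A sum that does not differ from 0 does not show that the changes are equal.

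**Figure D4:**
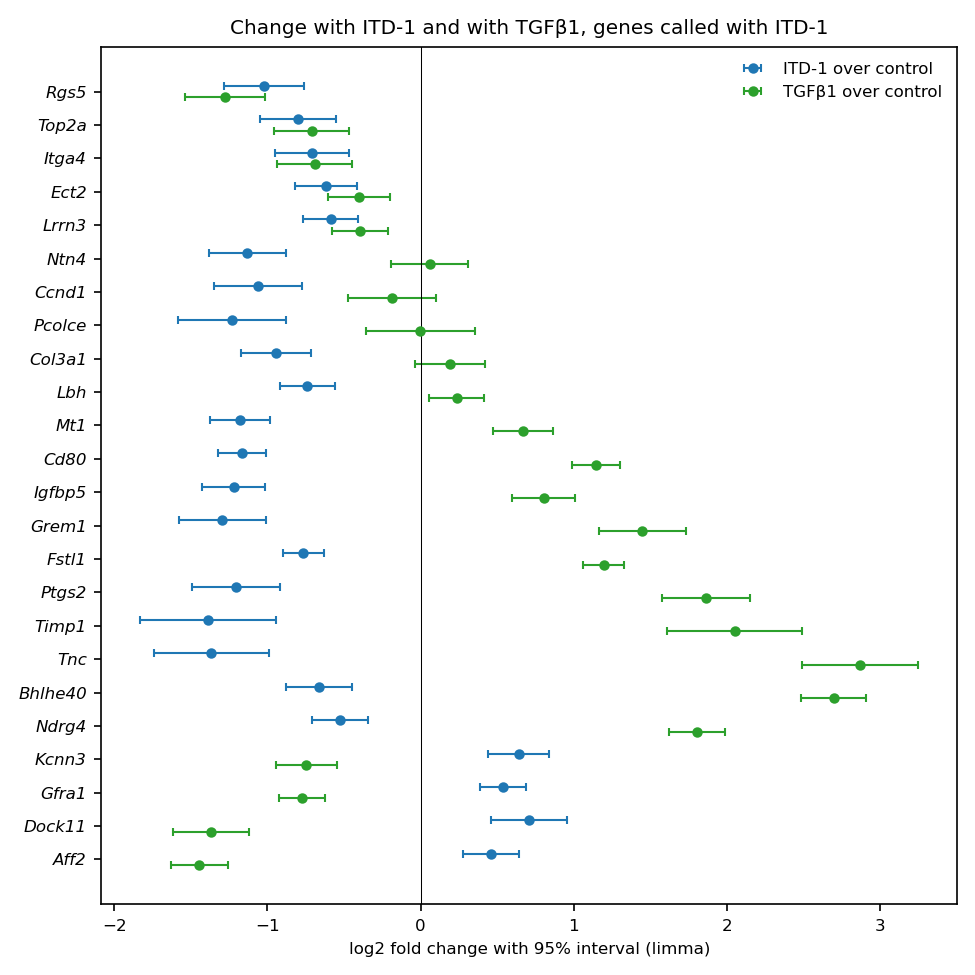
Log2 fold change over control with its 95% interval from limma, with ITD-1 (blue) above TGFβ1 (green) for 24 genes called with ITD-1. *Rgs5*, *Top2a*, *Itga4*, *Ect2* and *Lrrn3* are left of 0 with both, *Ntn4* is at -1.13 with ITD-1 and 0.06 with TGFβ1, and *Cd80* is at -1.17 and 1.15.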

How the data were processed

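RNA of 9 cultures was hybridised to Affymetrix MouseGene 2.0 ST arrays. The authors ran RMA on the scans in Bioconductor, using version 22 of a custom CDF, and what they deposited is a log2 value for each probe set and array. RMA subtracts background, gives all arrays one distribution and joins the probes of a gene, so a shift shared by all genes cannot be seen. No scanner files were used here. Arrays were grouped by their labels. Each probe set carries an Entrez gene ID, and 24673 of the 24704 tested were named through RefSeq. A further 723 have no symbol, and 1 shares its symbol with another.

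A mean per group was fitted to all 9 arrays with limma 3.58.1 in R 4.3.3 (lmFit, eBayes), with contrasts of ITD-1 and of TGFβ1 over control and the sum of both. Two-sided p-values were adjusted over the 24704 by Benjamini-Hochberg, genes were called under 0.05, and this p, from limma, is the one given for single genes. No threshold on level was set. For a single gene, exact permutation with 3 arrays a group has 0.1 as its smallest p. The steps were tested on simulated data.

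The comparison, the 43 gene lists and the tests were chosen with earlier results of these data known, and lists are described by counts and medians. Signs and medians of lists stand beside a median log2 fold change of 0.01 over all probe sets. Named genes are the 15 largest changes called in each direction, up to 4 called members of each list (or its smallest p), genes of the pathway and of the study, and the 10 called genes with the smallest p of the sum. The others were chosen after their values were seen. Alternatives were median centring, cyclic loess, a level filter, the methods' analysis of variance, eBayes with trend and robust settings, only ITD-1 and control arrays, array weights, a replicate block and leaving out each array. Leaving out probe sets with equal values within a group was added after the data were seen. Promoters are from RefSeq (GRCm38.p6), and the files name no build. The number of arrays limits the precision, and the median standard error of a log2 change was 0.0948.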

Additional observations from a re-analysis of the deposited data

How the results depend on the processing

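None of the 157 called genes changed the sign of its log2 fold change under any alternative. As their ITD-1 and control arrays do not overlap, leaving out 1 array could not turn a sign. Several other alternatives keep the same difference of group means and change only its standard error. The unchanged signs are therefore no test of the calls. Changes near 0 in genes not called are not covered by this count. Counts of calls did move, and the cause was not tested beyond what each setting changes by construction. With all arrays 142 genes were lower, 15 higher and 160 had a sum of both changes that differed from 0. Centring each array on its median gave 107, 10 and 102, and cyclic loess 145, 21 and 214. Dropping probe sets below the median level gave 174, 25 and 233, trend and robust settings 142, 16 and 178, and array weights 180, 30 and 294. With only the ITD-1 and control arrays, so with fewer samples, 60 were lower and 3 higher. The analysis of variance of the methods, with Benjamini-Hochberg adjustment, gave 17 and 1, with 1009 lower without adjustment. Leaving out each array gave 37 to 136 lower, 0 to 13 higher and 15 to 125 sums, the lowest without control replicate 1 each time, and 716 were still higher there without adjustment in limma. Without control replicates 1, 2 and 3 in turn, 121, 119 and 107 of the 157 calls were lost. The adjusted analysis of variance lost 140, the fit of ITD-1 and control arrays only 100, the replicate block 63 and median centring 40.

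Of the 157 genes, 14 were called under each alternative planned, among them *Cd80*, *Igfbp5*, *Mt1*, *Mmp2*, *Fstl1* and *Ptgfrn*. Some genes not called with all arrays were called elsewhere, as *Tgfb2* with the level filter (adjusted p = 0.0396) and without TGFβ1 replicate 2 (adjusted p = 0.0291), and *Mmp14* with array weights (adjusted p = 0.016). The labels number the replicates of each group 1 to 3. Residuals of ITD-1 and control arrays of the same number correlated at 0.146, -0.066 and -0.071. Those of ITD-1 and TGFβ1 arrays of the same number did so at 0.087, -0.113 and -0.117. Arrays of unlike number reached 0.161 between ITD-1 and control and 0.168 between ITD-1 and TGFβ1. The residuals thus show no pairing by number for ITD-1, but with 3 arrays a group they cannot exclude one. Those of TGFβ1 and control arrays of the same number correlated at 0.138, 0.155 and 0.305, and those of unlike number at -0.217 to 0.102. Whether equal numbers share an experiment was not tested. The sum rests on these 2 groups too. With the replicate number as a block 91 genes were lower, 11 higher and 95 sums differed. Probe sets with 3 different values in every group, a setting chosen after seeing the data, number 17627, and in them 106 were lower, 10 higher and 181 sums differed. Of these 104, 10 and 146 were the same genes as with all probe sets.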

Other observations

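Further genes that fell are given here by their values, chosen after these were seen and not as a group. *Slit2*, a ligand of ROBO receptors, was at 4.74, 4.37 and 4.34 with ITD-1, 5.99, 6.24 and 5.81 with TGFβ1 and 5.55, 5.38 and 5.38 in controls (-0.95 ± 0.13, adjusted p = 0.0147 in limma, lost without any one of ITD-1 replicates 2 and 3 and control replicates 1, 2 and 3 (adjusted p = 0.0511 to 0.0875)). *Sema7a*, a membrane-anchored semaphorin, was at 4.80, 4.97 and 5.04 with ITD-1, 7.68, 7.68 and 7.49 with TGFβ1 and 5.95, 6.01 and 5.68 in controls (-0.94 ± 0.10, adjusted p = 0.00597) and was called without each array. *Efnb2*, the ligand ephrin B2, fell by 0.93 ± 0.11 (adjusted p = 0.0083, lost without control replicate 1 (adjusted p = 0.0507) or control replicate 2 (adjusted p = 0.0527)), with one value on all 3 control arrays. *Plxnd1*, a semaphorin receptor, fell by 0.50 ± 0.07 (adjusted p = 0.0144, lost without any one of ITD-1 replicate 2 and control replicates 1, 2 and 3 (adjusted p = 0.0578 to 0.0847)), and *Sema5a* by 0.51 ± 0.09 (adjusted p = 0.0477, lost without any one of ITD-1 replicates 2 and 3, TGFβ1 replicates 1, 2 and 3 and control replicates 1, 2 and 3 (adjusted p = 0.0506 to 0.201)).

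Other genes that kept their call without each array belong to no list. *Ckb*, brain-type creatine kinase, was at 7.95, 7.89 and 8.04 with ITD-1, 10.38, 10.48 and 10.45 with TGFβ1 and 9.11, 8.85 and 8.75 in controls (-0.94 ± 0.09, adjusted p = 0.00365). *F2r*, the thrombin receptor PAR1, was at 8.06, 8.04 and 8.28 with ITD-1, 9.47, 9.51 and 9.43 with TGFβ1 and 8.81, 8.91 and 8.78 in controls (-0.71 ± 0.08, adjusted p = 0.00613). *Cdh18*, a cadherin, fell by 0.93 ± 0.10 (adjusted p = 0.00613), *Rnase4*, a secreted ribonuclease, by 0.95 ± 0.10 (adjusted p = 0.00508), and *Txndc5*, a disulfide isomerase of the endoplasmic reticulum, by 0.73 ± 0.06 (adjusted p = 0.00213). For *Lbh*, a transcription cofactor, the ITD-1 arrays were at 8.29, 8.37 and 8.59, the TGFβ1 arrays at 9.41, 9.39 and 9.37 and the control arrays at 9.17, 9.18 and 9.12 (-0.74 ± 0.08, adjusted p = 0.00522).

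On the ITD-1 arrays 307 probe sets had one value on all 3 arrays, on the TGFβ1 arrays 319 and on the control arrays 434. Among the 142 falls these were 0 on the ITD-1 arrays, 0 on the TGFβ1 arrays and 6 on the control arrays, where *Sdc2*, *Sh3bgrl*, *Plau*, *Tagln2*, *Efnb2* and *Arhgap42* have a spread of 0. The part of these values in the calls was tested only by leaving such probe sets out.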
